A study of Homo sapiens with 4 samples.

Results

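The 10 genes of polyamine synthesis and turnover were followed through RNA-Seq of SK-MEL-28 cells, an established human melanoma cell line. They were taken by gene symbol, and all 10 of 10 were found among the 25268 gene symbols of the deposited table. All 10 also reached 1 FPKM (fragments per kilobase of transcript, scaled to the mapped fragments of a library) on average over the libraries, as did 11147 genes in all. Of these genes, ODC1, AMD1, SRM and SMS encode enzymes of synthesis, SAT1, SMOX and PAOX encode enzymes of catabolism, OAZ1 and OAZ2 encode antizymes, and AZIN1 encodes an antizyme inhibitor.

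The study used SK-MEL-28 cells that carried either the empty pTRIPZ lentiviral vector (vector line) or a lentiviral MYC gene behind a Tet-inducible promoter (MYC line), both grown in G418. Each line was sequenced untreated and after 54 h in 0.5 μg/ml doxycycline (Dox), which is used to switch on the introduced MYC gene, and Dox in the vector line served as the background. With 4 libraries, 1 for each condition, differences have no replicate check, so no test was made and no p-value is given. Whether the lines were clones or pools of transduced cells is not given in the sources used here.

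Polyamines (putrescine, spermidine and spermine) are small positively charged molecules that bind nucleic acids and are needed for growth. Ornithine decarboxylase makes putrescine, and decarboxylated S-adenosylmethionine supplies the aminopropyl groups for the next steps. Acetylated polyamines are exported from the cell or oxidized back towards putrescine. Antizymes direct ornithine decarboxylase to the proteasome when polyamines are plentiful, and MYC is a known activator of ODC1.

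The libraries held approximately 35100000 to 42100000 fragments, estimated from the steps between very low FPKM values and annotated transcript lengths, and the FPKM values summed to between 692146 and 715495. The counting errors given below follow from this depth, cover the sampling of fragments only, and leave out differences between cultures. A change is a difference of log2(FPKM + 0.1), which slightly understates the change of low genes, and a gene was counted as higher or lower when it changed at least 1.5-fold. The MYC gene itself had 58.3 FPKM in the untreated and 54.8 FPKM in the Dox-treated vector line, and 76.5 FPKM in the untreated and 87.1 FPKM in the Dox-treated MYC line. Its difference of 0.19 on the log2 scale with Dox in the MYC line did not reach 1.5-fold. The table does not separate the introduced gene from the cell's own MYC, and whether fragments of the introduced gene were counted at all is not given in the sources used here, so these values do not measure the induction. All 6 of 6 melanocytic markers were expressed, from 61.9 to 6227 FPKM, and their summed level was 7891 FPKM, 7856 FPKM, 7743 FPKM and, in the Dox-treated MYC line, 4400 FPKM. This sum is carried by PMEL, which had 6176 FPKM, 6227 FPKM, 6178 FPKM and 3394 FPKM in the same order. PMEL, MLANA and TYR were the 3 of 6 that were at least 1.5-fold lower with Dox in that line. MITF, DCT and SOX10 did not reach 1.5-fold there, with log2 changes of -0.42, -0.43 and -0.30. In the vector line DCT changed by -0.29. Of the 10 markers of keratinocytes, fibroblasts, leukocytes and endothelial cells, 0 reached a mean of 1 FPKM, the highest value was 0.195 FPKM and KRT5 was listed at 0 in every library. What part the lower level of PMEL, MLANA and TYR has in the results below was not tested.

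Sequences at annotated starts of ODC1 and SRM, the 2 members that rose furthest, and of SAT1, which fell, are shown first. The reason is that only ODC1 and SRM, of 7 members searched, held the E-box CACGTG in a RefSeq window. MYC binds this motif with its partner MAX. A window ran from 250 bases before to 50 bases after an annotated start on GRCh38.p14, and windows of 7 of the 10 members were searched. No window was held for SMOX and PAOX, and AZIN1 was left out of the search. Whether SMOX, PAOX or AZIN1 holds the motif is therefore not known here. The stretches below are given 5′ to 3′ on the strand of the gene, in lower case with each CACGTG in capitals. The motif is a palindrome and reads the same on both strands.
ODC1, chr2:10447997-10448092, minus strand: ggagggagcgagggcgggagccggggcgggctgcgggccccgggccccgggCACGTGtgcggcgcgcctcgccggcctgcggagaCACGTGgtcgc
SRM, chr1:11060019-11060268, minus strand: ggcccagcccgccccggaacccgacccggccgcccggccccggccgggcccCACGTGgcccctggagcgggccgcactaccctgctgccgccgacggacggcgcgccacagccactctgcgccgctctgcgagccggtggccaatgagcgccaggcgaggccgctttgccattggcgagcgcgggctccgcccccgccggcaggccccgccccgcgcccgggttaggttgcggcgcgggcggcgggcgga
SAT1, chrX:23782923-23783172, plus strand: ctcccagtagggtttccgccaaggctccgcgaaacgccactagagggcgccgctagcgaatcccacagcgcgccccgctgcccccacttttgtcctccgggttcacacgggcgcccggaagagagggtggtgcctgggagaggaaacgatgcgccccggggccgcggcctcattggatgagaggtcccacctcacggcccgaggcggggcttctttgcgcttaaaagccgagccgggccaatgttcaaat

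The ODC1 stretch runs from base -80 to base 16 of the first of its RefSeq windows, and its 2 motifs begin at bases -29 and 6, where the annotated start is base 1. On GRCh37, the build of the expression table, the same letters matched at a single place and lie inside intron 1 of the canonical ODC1 transcript, where they begin at bases 287 and 321 counted from that transcript's start. The second ODC1 window held no CACGTG. The SRM motif begins at base -199, upstream of the gene. The SAT1 stretch held 0 motifs, as did the windows of AMD1, SMS, OAZ1 and OAZ2. GC content was 84.4% in the ODC1 stretch of 96 bases, and 82% and 66.4% in the SRM and SAT1 stretches of 250 bases. Over whole windows it was 80.7% in the first ODC1 window, 82% for SRM and 66% for SAT1. Among all 35116 RefSeq windows, 7.26% held at least 1 CACGTG and 0.664% held 2 or more. Among the 12245 windows of the 11147 expressed genes, these shares were 9.74% and 1.09%. The 7 members searched had 10 windows, of which 2 held the motif. A match of letters is a description of the sequence and does not show that MYC bound there.

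In the MYC line, ODC1 and SRM were at least 1.5-fold higher with Dox, SAT1 and PAOX were at least 1.5-fold lower, and the fold of AMD1 was just short of 1.5. By role, 2 of the 4 synthesis genes were higher and 2 of the 3 catabolic genes were lower, and the antizyme and antizyme inhibitor genes changed by 0.19 or less on the log2 scale. Of the 11147 genes, 5.90% were at least 1.5-fold higher and 8.85% were at least 1.5-fold lower in the same comparison, against 2 of 10 members in each direction. The median log2 change over the members was -0.01, beside -0.03 over all genes, so the set had no common direction.

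**Figure D1:**
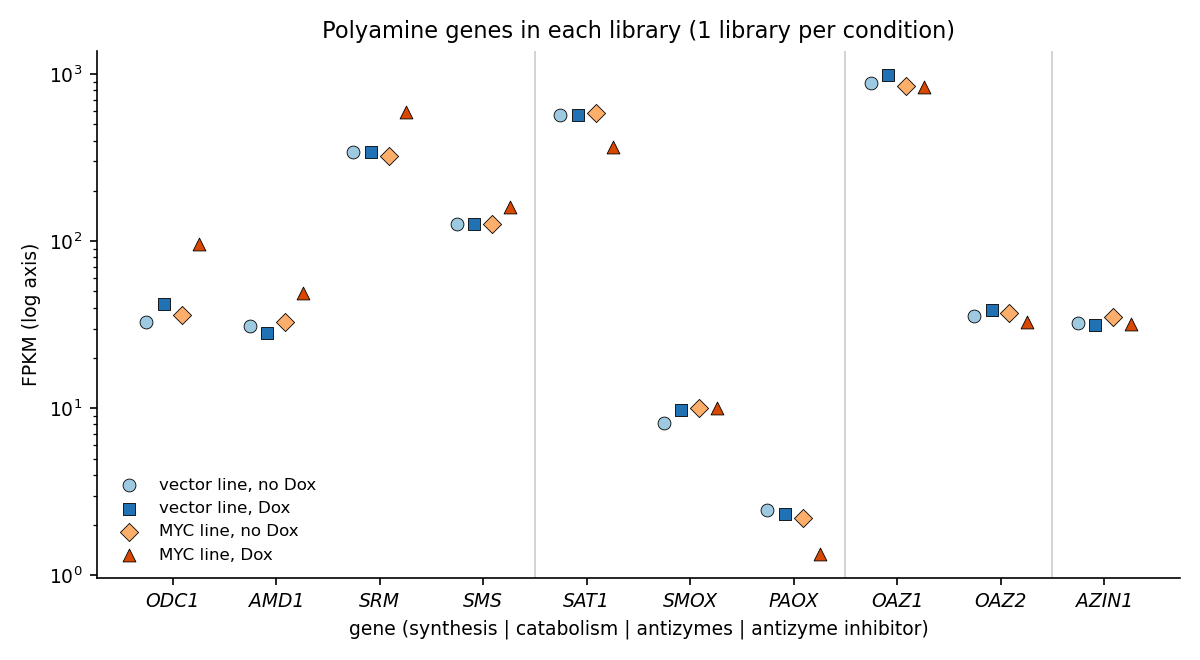
FPKM values (log axis) of the 10 genes in the 4 libraries, 1 marker per library, with lines between the roles. The triangle of the MYC line with Dox stands above the other 3 libraries for ODC1, AMD1, SRM and SMS and below them for SAT1, PAOX, OAZ1 and OAZ2, with SMOX and AZIN1 inside their range.

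Ornithine decarboxylase, the enzyme that makes putrescine, is encoded by ODC1 on chromosome 2 (GRCh37, 10580094 to 10588453, minus strand, 12 exons in the canonical transcript). ODC1 had 32.8 FPKM in the untreated and 42.2 FPKM in the Dox-treated vector line, and 36.3 FPKM in the untreated and 96.1 FPKM in the Dox-treated MYC line. The last library lay far above the other 3, which spanned 28.4% from lowest to highest. The change with Dox was 1.40 on the log2 scale (2.65-fold, approximate counting error 0.0278) in the MYC line and 0.36 (1.28-fold, approximate counting error 0.0350) in the vector line. The value in the vector line did not reach 1.5-fold, and with 1 library for each condition an effect of Dox and chance variation between cultures cannot be told apart. The change in the MYC line exceeded that in the vector line by 1.04 (approximate counting error 0.0447). Among the 11147 genes, 42 had a higher change in the MYC line, 209 had a higher change in the vector line, and 107 had a higher difference between the changes of the lines.

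AMD1 encodes adenosylmethionine decarboxylase, which makes the aminopropyl donor, and lies on chromosome 6 (GRCh37, 111195973 to 111220082, plus strand). AMD1 had 30.9 FPKM and 28.3 FPKM in the vector line without and with Dox, and 32.6 FPKM and 48.9 FPKM in the MYC line. The library of the MYC line with Dox was above the other 3, which spanned 15.2%. Its log2 change with Dox was 0.58 (1.4999-fold, approximate counting error 0.0275) in the MYC line and -0.13 (approximate counting error 0.0334) in the vector line. AMD1 was the member just outside the 1.5-fold threshold and PAOX, at -0.68, was with SAT1 the nearest inside it. AMD1 passed when the libraries were scaled by the median ratio or the upper quartile.

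Spermidine synthase adds an aminopropyl group to putrescine, and its gene SRM lies on chromosome 1 (GRCh37, 11114641 to 11120077, minus strand). SRM had 343 FPKM untreated and 342 FPKM after Dox in the vector line, against 324 FPKM and 588 FPKM in the MYC line. The first 3 of these values lay within 5.91% of each other and the fourth stood apart. SRM rose by 0.86 on the log2 scale (1.82-fold, approximate counting error 0.0139) in the MYC line and changed by -0.01 (approximate counting error 0.0161) in the vector line. In the MYC line 195 genes had a higher change than SRM.

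Spermine synthase makes spermine from spermidine, and its gene SMS lies on chromosome X (GRCh37, 21958827 to 22012955, plus strand). SMS had 126 FPKM and 127 FPKM in the vector line without and with Dox, and 126 FPKM and 160 FPKM in the MYC line. The other 3 libraries lay within 1.32% of each other, and the library of the MYC line with Dox was above them. The log2 difference of SMS with Dox was 0.34 (1.27-fold, approximate counting error 0.0206) in the MYC line, which is under the 1.5-fold threshold, and 0.01 in the vector line. It had the smallest change of the 4 synthesis genes, and 1735 genes had a higher change. Pseudogenes named after AMD1 (4), SRM (3), SMS (1) and OAZ1 (1) are annotated, and reads could have been split between them and the genes, so these levels carry that uncertainty.

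Spermidine/spermine N1-acetyltransferase acetylates spermidine and spermine for export or oxidation, and its gene SAT1 lies on chromosome X (GRCh37, 23801290 to 23804327, plus strand). SAT1 had 568 FPKM untreated and 565 FPKM after Dox in the vector line, against 585 FPKM and 365 FPKM in the MYC line. The other 3 libraries spanned 3.50% and the library of the MYC line with Dox was far below them. SAT1 fell by 0.68 on the log2 scale (-37.6%, approximate counting error 0.0148) in the MYC line and changed by -0.01 (approximate counting error 0.0138) in the vector line. In the MYC line 712 genes had a lower change. Because these are values from bulk RNA scaled to each library's total, fewer cells that express a gene and less of its RNA per cell cannot be told apart.

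PAOX encodes the peroxisomal oxidase that acts on the acetylated polyamines, on chromosome 10 (GRCh37, 135192765 to 135205198, plus strand), and it was the lowest of the members. PAOX had 2.46 FPKM and 2.33 FPKM in the vector line without and with Dox, and 2.22 FPKM and 1.34 FPKM in the MYC line. Its change in the MYC line, -0.68, was like that of SAT1 but rested on approximately 171 and 97 fragments, which gave it a counting error of 0.184. With a pseudocount of 1 the PAOX change was -0.46 and no longer passed 1.5-fold. SMOX encodes spermine oxidase, which turns spermine directly into spermidine, on chromosome 20 (GRCh37, 4101627 to 4168394, plus strand). SMOX had 8.14 FPKM in the untreated and 9.81 FPKM in the Dox-treated vector line, and 9.99 FPKM and 9.98 FPKM in the MYC line. The untreated vector line was the low library, and the change was 0.27 (1.20-fold, approximate counting error 0.0762) in the vector line and -0.00 (approximate counting error 0.0688) in the MYC line. The catabolic genes therefore did not move together: SAT1 and PAOX were lower with Dox in the MYC line and SMOX was not.

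**Figure D2:**
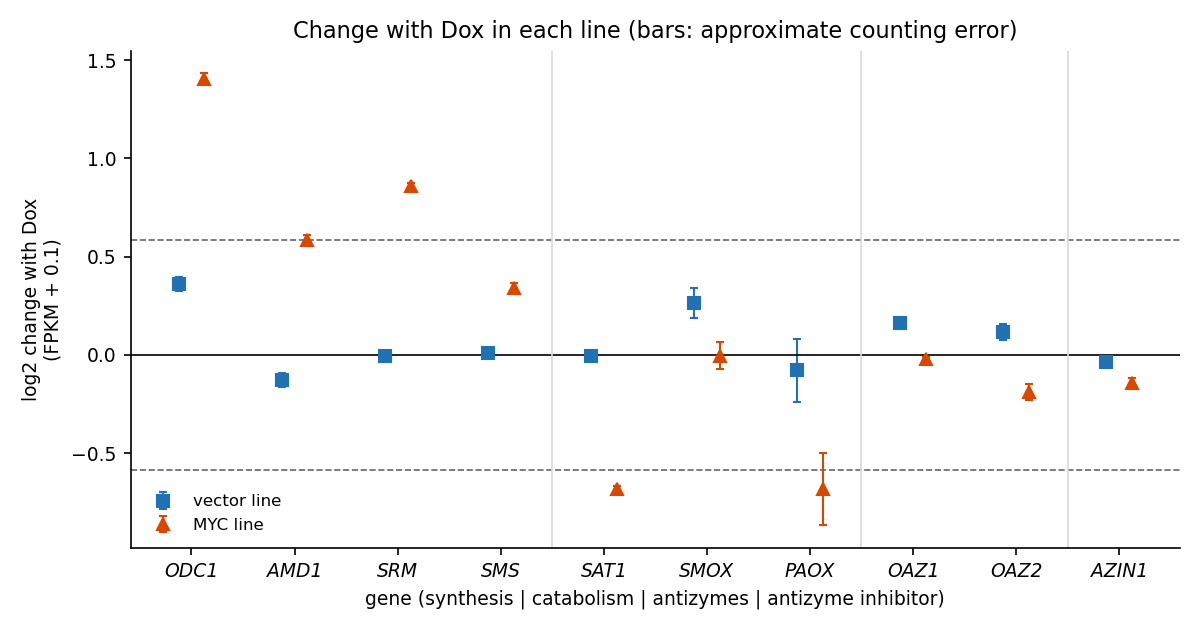
Log2 change with Dox, on the scale log2(FPKM + 0.1), of each gene in the vector line (squares) and the MYC line (triangles), with bars for the approximate counting error and dashed lines at 1.5-fold. ODC1 at 1.40 and SRM at 0.86 stand above the upper line, AMD1 sits on it, and SAT1 and PAOX, both at -0.68, stand below the lower line, while in the vector line ODC1 at 0.36 is the furthest from 0.

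Antizyme 1, the main brake on ornithine decarboxylase, is encoded by OAZ1 on chromosome 19 (GRCh37, 2269508 to 2273489, plus strand), which had the highest level of the members. OAZ1 had 884 FPKM and 990 FPKM in the vector line without and with Dox, and 852 FPKM and 840 FPKM in the MYC line. The vector line with Dox was the high library, and the change was 0.16 (approximate counting error 0.0102) in the vector line and -0.02 (approximate counting error 0.0103) in the MYC line. OAZ2, a second antizyme gene on chromosome 15 (GRCh37, 64979772 to 64995480, minus strand), had 35.8 FPKM, 38.9 FPKM, 37.4 FPKM and 32.8 FPKM in the same order of libraries. It changed by 0.12 in the vector line and by -0.19 (approximate counting error 0.0390) in the MYC line. Both antizyme genes thus had their lowest level in the MYC line with Dox, by less than 1.5-fold. For OAZ1 the difference from the untreated MYC line was -1.36%. Its log2 change there was above 0 with median ratio scaling (0.03) and upper quartile scaling (0.01), so its place as lowest depended on the scaling. Antizymes are made through a ribosomal frameshift that polyamines promote, which RNA levels do not show.

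AZIN1 encodes a protein that resembles ornithine decarboxylase without its activity and binds antizyme, and it lies on chromosome 8 (GRCh37, 103838339 to 103906092, minus strand). AZIN1 had 32.2 FPKM and 31.4 FPKM in the vector line without and with Dox, and 35.2 FPKM and 31.9 FPKM in the MYC line. The 4 values lay close together, with a change of -0.14 (approximate counting error 0.0270) in the MYC line and -0.03 in the vector line. Exons of SAT1, PAOX, OAZ1 and AZIN1 are shared with another protein-coding gene annotated on the same strand, and exons of OAZ1 and OAZ2 overlap a gene on the opposite strand. Reads in exons shared on the same strand cannot be told apart by strand. Whether strand was used in counting is not given in the sources used here, so reads of partners on the opposite strand cannot be told apart either.

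Dox alone, in the vector line, took 0 of 10 members past 1.5-fold in either direction, where 0.709% of all genes were higher and 0.440% were lower. The median log2 change was 0.00 over the members and 0.01 over all genes. Before treatment, the MYC line differed from the vector line by 1.5-fold for 0 of 10 members, where 0.592% of all genes were higher and 0.287% were lower. The largest such difference was that of SMOX, 0.29, followed by those of PAOX, -0.15, and ODC1, 0.14. With Dox in both lines, ODC1, AMD1 and SRM were at least 1.5-fold higher in the MYC line, by 1.19, 0.79 and 0.78 on the log2 scale, and SAT1 and PAOX were lower, by -0.63 and -0.75. Of all genes, 6.50% were higher and 8.62% were lower in that comparison. This comparison shares a library with the change in the MYC line and is not a second measurement of it. The library of the MYC line with Dox was the highest of the 4 for 4 of 10 members and the lowest for 4 of 10, and over all genes it was the highest for 40.2% and the lowest for 42.9%, so this order alone does not set the members apart.

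**Figure D3:**
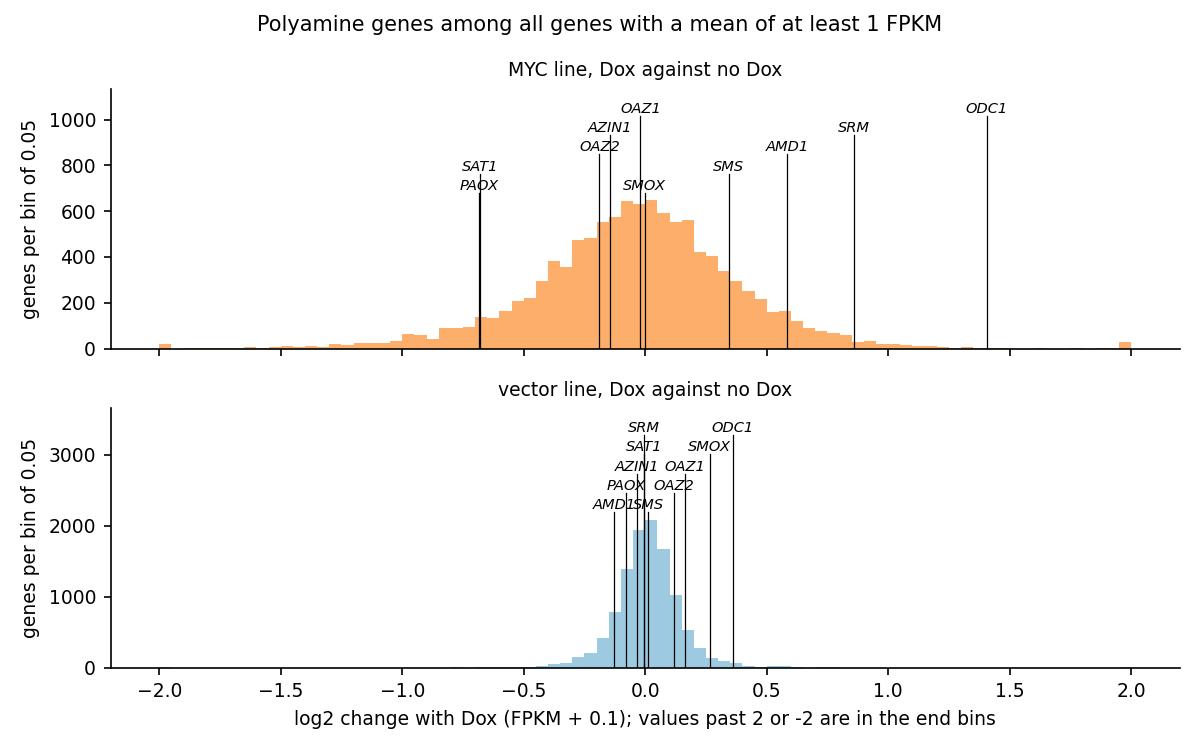
Number of genes per bin of log2 change with Dox (bin width 0.05, values past 2 or -2 in the end bins) over the 11147 expressed genes, in the MYC line (top) and the vector line (bottom), with a line at each of the 10 members. The spread over all genes was wider in the MYC line (robust SD 0.36) than in the vector line (0.11), and ODC1 lies in the right tail of both.

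When levels were summed within a library, the synthesis sum rose and the catabolism sum fell with Dox in the MYC line. The 4 synthesis genes together had 534 FPKM and 540 FPKM in the vector line without and with Dox, and 519 FPKM and 893 FPKM in the MYC line, a fold of 1.72 in the latter and 1.01 in the former. The 3 catabolic genes together had 579 FPKM and 578 FPKM in the vector line, and 597 FPKM and 376 FPKM in the MYC line, a fold of 0.630. The ratio of the synthesis sum to the catabolism sum was 0.922, 0.935 and 0.868 in the first 3 libraries and 2.37 in the MYC line with Dox. These sums are carried by SRM, which made up 62.5% to 65.9% of the synthesis sum, and by SAT1, which made up 97.0% to 98.2% of the catabolism sum. The ratio of SRM to SAT1 alone was 0.605, 0.605, 0.554 and 1.61 in the same order.

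Ratios within a library showed where members moved apart. The ratio of OAZ1 to ODC1 was 26.9 in the untreated and 23.5 in the Dox-treated vector line, and 23.5 in the untreated and 8.74 in the Dox-treated MYC line. ODC1 and its antizyme-binding relative AZIN1 stood at a ratio of 1.02, 1.34, 1.03 and 3.02 in the same order. The ratio of SRM to SMS was 2.72, 2.68, 2.58 and 3.69, and that of SAT1 to SMOX was 69.7, 57.6, 58.6 and 36.6. In each of these ratios the MYC line with Dox lay outside the range of the other 3 libraries. Over all single genes that library was the highest for 40.2% and the lowest for 42.9%. The share of ratios between other genes that lie outside in this way was not computed, so this order does not set these ratios apart. The ratio of OAZ1 to OAZ2 was 24.7, 25.5, 22.8 and 25.6, so its highest value was also in the MYC line with Dox, next to the value of the vector line with Dox. The sum over all 10 members was 2064 FPKM, 2178 FPKM, 2041 FPKM and 2174 FPKM, so its highest value was in the vector line with Dox.

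**Figure D4:**
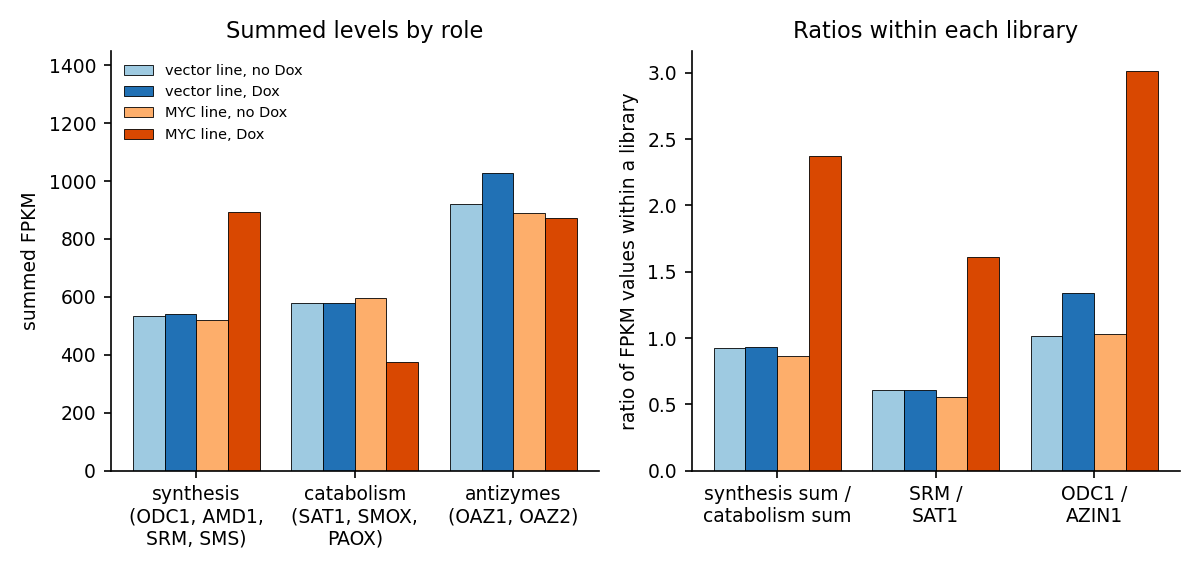
Summed FPKM of the synthesis, catabolism and antizyme genes (left) and 3 ratios of FPKM values within a library (right), 1 bar per library, with no error bars because each condition had 1 library. In the MYC line with Dox the synthesis sum was 893 FPKM against 519 FPKM without Dox, and the ratio of synthesis to catabolism was 2.37 against 0.868.

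Ordered by the median FPKM over the 4 libraries, a scale that is per length of transcript, the members were OAZ1 (868 FPKM), SAT1 (567 FPKM), SRM (343 FPKM), SMS (127 FPKM), ODC1 (39.2 FPKM), OAZ2 (36.6 FPKM), AZIN1 (32.0 FPKM), AMD1 (31.8 FPKM), SMOX (9.89 FPKM) and PAOX (2.27 FPKM). The ranges over the 4 libraries overlapped for the neighbours SAT1 and SRM, ODC1 and OAZ2, OAZ2 and AZIN1, and AZIN1 and AMD1, and not for the other neighbours. SAT1 was above SRM in 3 libraries and below it in the MYC line with Dox.

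The genes whose pattern was most like that of a member were found by the distance between their 3 log2 differences from the untreated vector line, over the 4 libraries and among genes that averaged 5 FPKM or more. For ODC1 these were FRMD6-AS1 (distance 0.184), TRAP1 (0.319) and SLC6A15 (0.372). FRMD6-AS1 is an antisense RNA gene, whose reads cannot be told from those of its partner where strand was not used. TRAP1, a mitochondrial chaperone, had 59.7 FPKM, 66.4 FPKM, 59.9 FPKM and 152 FPKM. For SAT1 the nearest were MYH10 (0.0180), SLC39A13 (0.0266) and SORT1 (0.0304). MYH10, a nonmuscle myosin heavy chain, had 29.3 FPKM, 29.1 FPKM, 30.0 FPKM and 19.0 FPKM. The genes nearest to ODC1 lay much farther from it than those nearest to SAT1 did.

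The wider pathway was described by a list of 31 genes that supply the substrates of polyamine synthesis, use polyamines or move them, of which 22 averaged 1 FPKM or more. With Dox in the MYC line, 1 of 22 was at least 1.5-fold higher and 0 of 22 were lower, beside the 5.90% and 8.85% of all genes given above. The gene was SLC25A15, the mitochondrial ornithine carrier, with 4.23 FPKM and 3.77 FPKM in the vector line without and with Dox and 4.13 FPKM and 6.78 FPKM in the MYC line. It rose by 0.70 in the MYC line and changed by -0.16 in the vector line. In the vector line 0 of 22 genes passed 1.5-fold. Over the 22 genes the log2 change had a median of 0.13 in the MYC line and 0.01 in the vector line, beside -0.03 and 0.01 over all genes. In the MYC line 14 genes were above 0 and 8 below 0. The share of all genes above or below 0 was not computed.

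Of the genes with the highest level in each role, none passed 1.5-fold. EIF5A, the translation factor that carries hypusine made from spermidine, had 677 FPKM and 707 FPKM in the vector line without and with Dox and 664 FPKM and 977 FPKM in the MYC line, a log2 change of 0.56 in the latter and 0.06 in the former. AHCY, which clears S-adenosylhomocysteine, had 152 FPKM, 154 FPKM, 158 FPKM and 211 FPKM in the same order, a change of 0.42 in the MYC line. In both genes the MYC line with Dox was the high library. OAT, which links ornithine to glutamate and proline, changed by 0.11, and SLC3A2, the heavy chain of amino acid transporters, by 0.19 against 0.26 in the vector line. ADI1, of methylthioadenosine salvage, and SAT2, a relative of SAT1, both changed by -0.31 in the MYC line. By role, the median log2 change in the MYC line was 0.25 over the 5 salvage genes, 0.25 over 4 transport genes, 0.15 over 3 genes of S-adenosylmethionine supply, 0.11 over 3 genes of ornithine supply and use, and 0.04 over 4 genes of hypusine formation. The other turnover and antizyme genes, SAT2, OAZ3 and AZIN2 (listed under its older symbol), had a median of -0.31, beside -0.03 over all genes. Of these, 3 of 3 were below 0, a count with no share of all genes beside it.

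**Figure D5:**
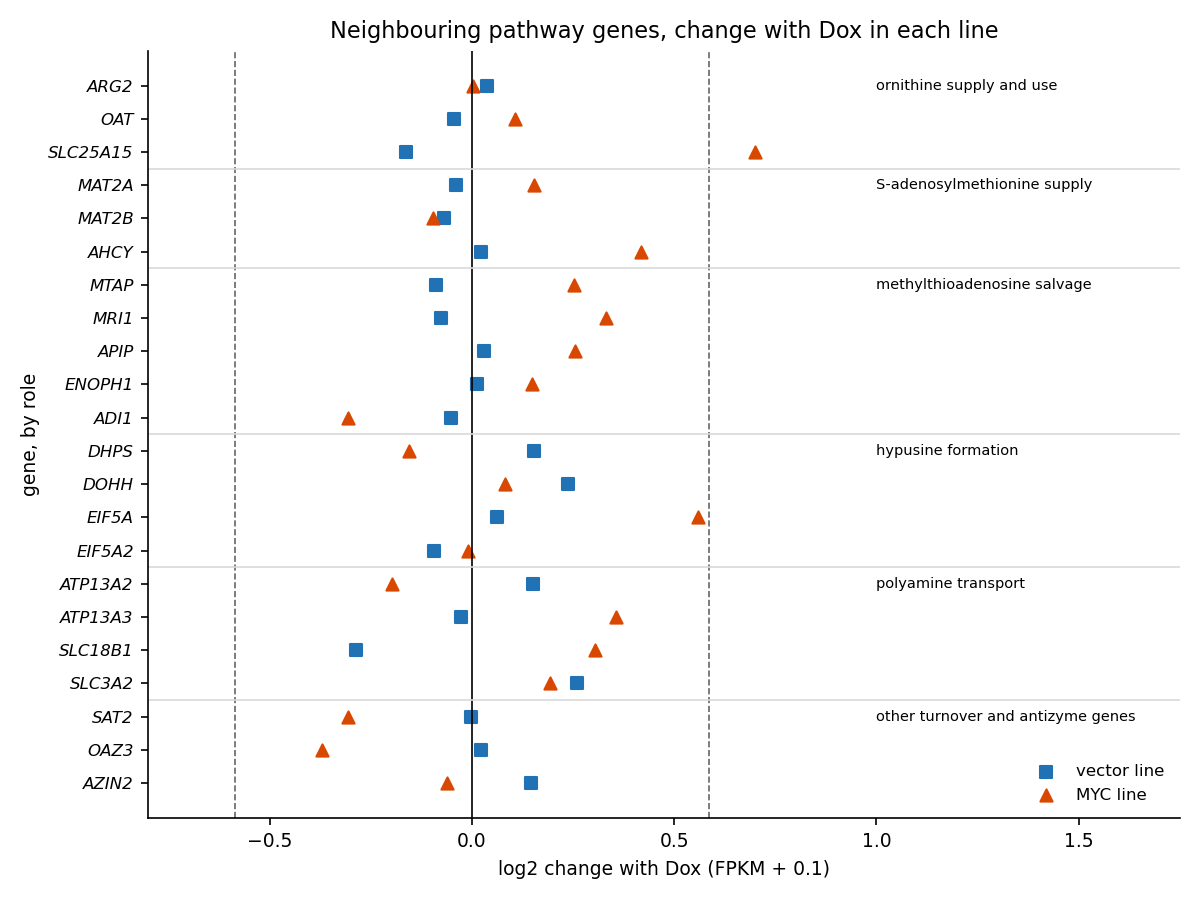
Log2 change with Dox, on the scale log2(FPKM + 0.1), of the 22 genes of the wider pathway list in the vector line (squares) and the MYC line (triangles), grouped by role, with dashed lines at 1.5-fold. SLC25A15 at 0.70 is the gene past the upper line in the MYC line, EIF5A at 0.56 is just inside it, and no square passes either line.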

How the data were processed

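RNA-Seq of SK-MEL-28 cells gave 4 libraries, 1 for each condition, for which the authors deposited FPKM values by gene symbol. The submitters' processing notes name TopHat2 2.0.14, Cufflinks, hg19 and GRCh37 without their roles, and the annotation and strand setting are not given in the sources used here. Of 27032 rows, 1 had no gene name and was dropped. Values of the 609 symbols found on several rows were added up, leaving 25268 symbols.

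FPKM values are not counts, so no count model was fitted. Changes were differences of log2(FPKM + 0.1), and were computed for 11147 genes that averaged 1 FPKM or more. A gene was counted as changed at 1.5-fold. No test was made, because each condition has 1 library. Relative depth was the commonest ratio between 640 genes under 0.05 FPKM, and absolute depth came from 157 genes with a single annotated transcript, with quartiles of 34000000 and 40800000 fragments in the untreated vector line. Lengths and positions came from GENCODE on GRCh37, and promoter windows from RefSeq on GRCh38.p14.

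The members, the lists and the rule for named genes were chosen with earlier results of these data known. Named were all 10 members, MYC, genes of the wider list past 1.5-fold in the MYC line or with the highest mean of their role, and the 3 genes nearest in pattern to the member with the largest rise and to that with the largest fall, measured as the change in the MYC line minus that in the vector line. Marker genes were named beside their list. The calculations were tested on simulated data, which held fragment sampling only and used the same transcript lengths as the depth estimate. Isoforms, shared reads and differences between cultures were not simulated. Other settings tried were pseudocounts of 1 and 0.01, all genes or those averaging 5 FPKM, 3 rescalings, the highest row in place of the sum, a 2-fold threshold and the treated vector line as the reference. The software was Python 3.11.15 with matplotlib 3.10.9, pandas 2.3.3 and numpy 2.4.6.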

Additional observations from a re-analysis of the deposited data

Results flagged for a closer look

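In 5 members the change with Dox had opposite signs in the MYC line and the vector line, with 1 library per condition, and the difference was not tested. The share of all genes with opposite signs was not computed, so the count does not set the members apart. The change in the MYC line minus that in the vector line was 0.71 for AMD1 and 0.87 for SRM, where the vector line moved slightly down and the MYC line up. It was -0.27 for SMOX, -0.18 for OAZ1 and -0.31 for OAZ2, where the vector line moved up and the MYC line down. For SRM the vector change was -0.01 and for SMOX the change in the MYC line was -0.00, both smaller than their counting errors of 0.0161 and 0.0688, so those signs carry no information. The sign of the OAZ1 change in the MYC line, -0.02, depended on the scaling.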

How the results depend on the processing

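No paired analysis was possible because only 1 library represents a condition. Of the values and counts that answer a comparison, 60 stayed within the limits set for a shift and 11 moved, and of the values of single members 184 stayed and 6 moved. Each member had 1 row, so taking the highest row could not change its values. Those results are among the ones that stayed. No direction was reversed among values counted as changed. The number of members that fell in the MYC line was 1 in place of 2 with a pseudocount of 1 and 1 with a filter at 5 FPKM, which removed PAOX. With a 2-fold threshold 1 member changed, 1 rose (ODC1) and 0 fell. In the wider list, 2 genes rose with median ratio scaling, 2 with upper quartile scaling (SLC25A15 and EIF5A in both), 2 without a filter (SLC25A15 and SLC12A8) and 2 against the treated vector line (SLC25A15 and SLC18B1), while 0 rose with a filter at 5 FPKM and 0 at 2-fold. With a pseudocount of 1, PAOX changed by -0.46, and its difference between the lines was -0.40. Against the treated vector line, ODC1 was 1.19, AMD1 0.79, OAZ1 -0.24 and AZIN1 0.02. Small changes crossed 0 over the alternatives: with Dox in the MYC line OAZ1 ranged from -0.07 to 0.03 and SMOX from -0.05 to 0.04. AZIN1 stayed below 0 in that comparison, from -0.19 to -0.10, and was above 0 only against the treated vector line. Depth limits PAOX and, less, SMOX, and the missing replicates limit every change.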
